A study of Salmo salar with 30 samples.

Results

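The probe C204R103, named cytochrome p450 2m1, was 1 of the 21136 probes retained on a salmonid microarray, and it was followed here across 30 whole-head RNA samples of Atlantic salmon juveniles. It was chosen on its difference between the rearing environments in these samples, so that difference is described without a test. The samples came from 3 full-sib families, and each family gave 5 juveniles from an enriched tank (gravel substrate) and 5 from an unenriched tank (no gravel). Family X11 had a wild dam and a wild sire, and families X22 and X35 each had a wild dam and a farmed sire of the Saint John River strain. All juveniles were taken at emergence, when the yolk sac was used up, but emergence time was judged from the gravel-reared families alone. The head was cut off behind the operculum, so that brain, eyes, gill and heart tissue could contribute RNA. The study reports that enriched juveniles were heavier than unenriched juveniles with length accounted for. It also names size or developmental stage as a possible contributor to differences in muscle and organ transcripts. Size and stage were not separated from the environment here. Each family had a single tank per environment, so within a family the tank and the environment cannot be told apart. In such whole-head RNA, fewer cells of a type and less RNA per cell cannot be told apart either.

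Cytochromes P450 are haem enzymes that insert an oxygen atom into a substrate, taking electrons from NADPH-cytochrome P450 reductase and, for some reactions, from cytochrome b5. The 2M subfamily is known from fish: CYP2M1 was described in rainbow trout, where it hydroxylates the fatty acid lauric acid and was found in liver and kidney. No function of the Atlantic salmon transcript was measured here, and neither the probe's sequence nor its place in the genome is given in the sources used here.

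Each array carried the RNA of 1 juvenile in the Cy5 channel and a pool of the RNA samples of the study in the Cy3 channel, with no exchange of dyes. The values are log2 ratios of juvenile over pool, background-subtracted and loess-normalized, so that 0 is the level of the pool and 1 is a doubling. Between 28.2 and 42.9% of the spots of an array were above its Cy5 limit, taken as the mean of the local background plus 2 SD. Pairs of arrays correlated between -0.35 and 0.68 over the 18626 probes measured on all arrays. The direction of the ratios was kept because the study's methods state the dyes.

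C204R103 was higher in the enriched juveniles of all 3 families. In family X11, the 5 enriched juveniles had log2 ratios of 0.58, 0.25, 0.80, 1.11 and 0.30, against -2.04, -2.02, -2.16, -1.41 and -1.46 in the 5 unenriched juveniles. In family X22, the enriched juveniles had log2 ratios of 1.00, 0.27, 1.76, -0.07 and 0.03, against -1.93, -2.49, -1.52, -1.42 and -0.78 in the unenriched juveniles. In family X35, the enriched juveniles had log2 ratios of 1.48, 0.40, 0.64, 0.32 and -0.13, against -0.59, -0.46, -1.34, -1.16 and -1.64 in the unenriched juveniles. The environments did not overlap in any family, and the gap was widest in X11. The lowest enriched juvenile of all, at -0.13, and the highest unenriched juvenile of all, at -0.46, were both from X35.

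**Figure D1:**
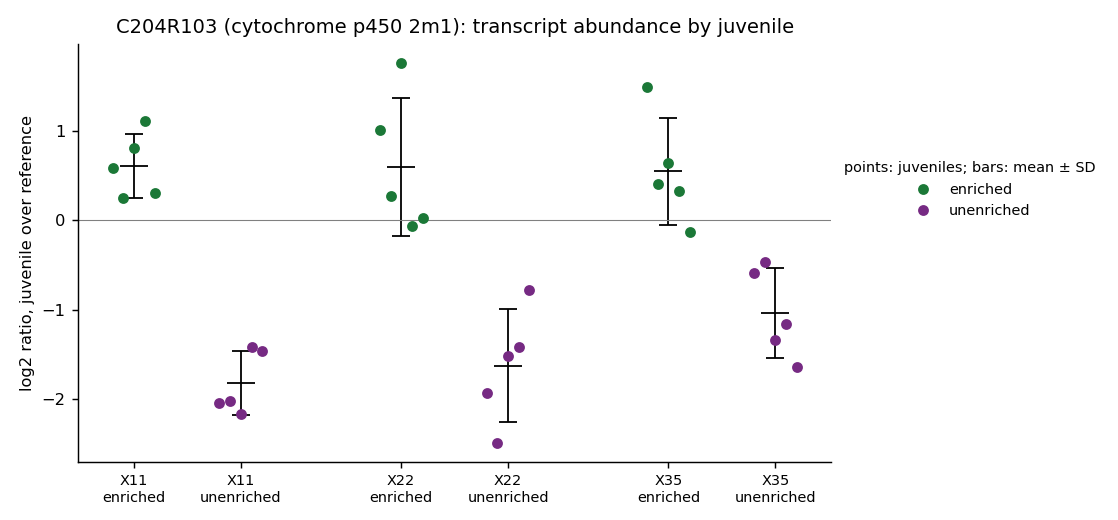
Log2 ratio of C204R103 in each juvenile over the common pool, by family and rearing environment; points are juveniles and bars are the mean ± SD of 5 juveniles. All 15 enriched juveniles lie at -0.13 or above and all 15 unenriched juveniles at -0.46 or below.

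Over all families, the log2 ratio averaged 0.58 ± 0.56 in enriched juveniles and -1.50 ± 0.58 in unenriched juveniles (SD, n = 15 each), a difference of 2.08. In X11 it averaged 0.61 ± 0.36 in enriched and -1.82 ± 0.35 in unenriched juveniles, a difference of 2.43 (SD, n = 5 each). In X22 it averaged 0.60 ± 0.77 in enriched and -1.63 ± 0.63 in unenriched juveniles, a difference of 2.23 (SD, n = 5 each). In X35 it averaged 0.54 ± 0.60 in enriched and -1.04 ± 0.50 in unenriched juveniles, a difference of 1.58 (SD, n = 5 each). The enriched means of the families lay within 0.06 of each other, whereas their unenriched means spread from -1.82 to -1.04. Every enriched juvenile was above every unenriched juvenile at 2 of the 18626 probes measured on all arrays (0.0107%), C204R103 and C237R040, which is named as a hypothetical protein. The probe was selected on this same contrast, so nothing is read from that count.

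The transcript was dim. In X11, the Cy5 signal medians of enriched juveniles were 879, 581.5, 1335, 1523.5 and 745, against 122, 109, 61, 247 and 154 in unenriched juveniles. In X22, they were 1202, 586, 1782, 914 and 192 in enriched juveniles, against 92, 116, 498.5, 391 and 434 in unenriched juveniles. In X35, they were 2063, 830, 1001.5, 296 and 698 in enriched juveniles, against 456, 796, 283.5, 397 and 235.5 in unenriched juveniles. The signal was above the Cy5 limit of its own array in 9 of 15 enriched juveniles, 3 in each family, and in 0 of 15 unenriched juveniles. The raw signals of the environments overlapped, and the enriched X22 juvenile with a signal of 192 lay on the dimmest array, whose spots had a median Cy5 signal of 57. Divided by the median Cy5 signal of its own array, the spot still overlapped, from 1.70 in the lowest enriched juvenile to 1.88 in the highest unenriched juvenile. The spot was never flagged or saturated, and its local background had a median of 1 on every array in both channels.

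**Figure D2:**
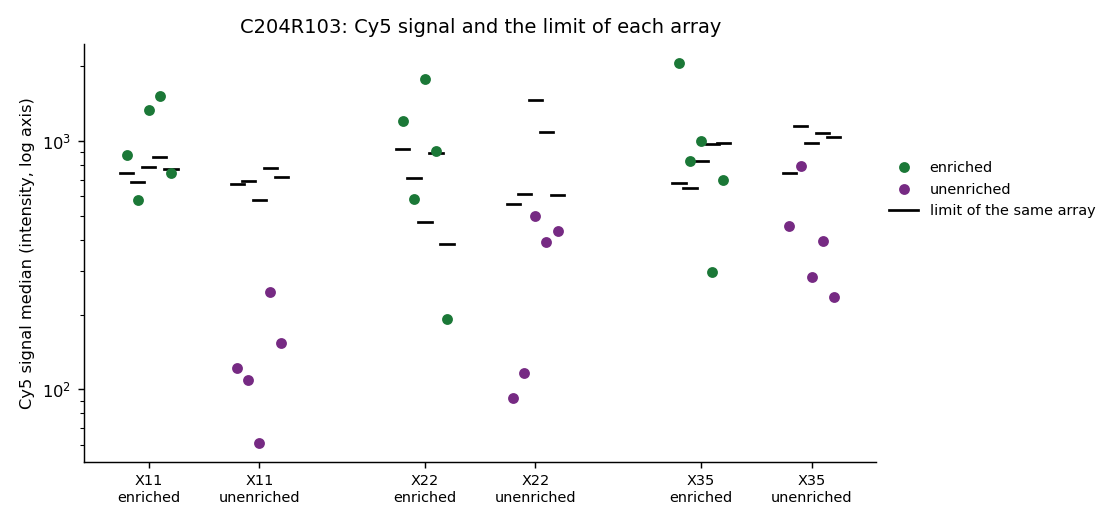
Cy5 signal median of the C204R103 spot in each juvenile (log axis), with a short black line at the limit of the same array. Signals were above the limit in 9 of 15 enriched juveniles and in 0 of 15 unenriched juveniles.

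Because the transcript was not well above background in any unenriched juvenile, its unenriched level is not settled and the log2 differences above are between measured values. A fold was taken from Cy5 signals normalized by loess within arrays and by the quantiles of mean intensity between arrays, with each unenriched array set at the lowest signal above its limit or at its own signal if that was higher. This gave a fold of 2.69 over all families, with 8 of the 15 unenriched arrays at that lowest signal and 7 at their own signals under the limit, and of 3.41 in X11, with 5 of 5 at the lowest signal. With every unenriched array at its own Cy5 limit, an alternative chosen after seeing the data, the fold was 1.05 over all families, 1.10 in X11 and 1.09 in X22, and in X35 the enriched mean was not above the limit. The folds of the first rule are therefore not strict lower bounds. The measured log2 Cy5 means were 10.02 in enriched and 8.13 in unenriched juveniles over all families. The 6 enriched juveniles under their own limit kept their measured signals in these means.

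The Cy3 channel held the same pool on every array. The Cy3 signal median of the spot was 559 to 1178 on the arrays of enriched juveniles and 750 to 1761.5 on the arrays of unenriched juveniles, above the Cy3 limit on all 30 arrays. After normalization the log2 Cy3 signal averaged 9.44 ± 0.37 with enriched and 9.62 ± 0.41 with unenriched juveniles (SD, n = 15 each). The normalized Cy5 signal alone differed on the log2 scale by 1.90 in the combined families, by 2.59 in X11, by 1.82 in X22 and by 1.28 in X35.

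Enriched and unenriched juveniles shared 5 of the 8 slides, and C204R103 was higher in the enriched juveniles on each of these. Every enriched juvenile was above every unenriched juvenile, so this direction was fixed in advance and only the sizes are described. On slide 1, the mean log2 ratio was 0.64 in 2 enriched and -2.21 in 2 unenriched X22 juveniles. On slide 2, it was 1.76 in 1 enriched and -1.24 in 3 unenriched X22 juveniles. On slide 4, the only slide with X11 juveniles of both environments, it was 0.58 in 1 enriched and -1.68 in 3 unenriched juveniles. On slide 7, the only one with X35 juveniles of both environments, it was 0.84 in 3 enriched juveniles and -1.64 in 1 unenriched juvenile. Slide 3 set 1 enriched X22 juvenile, at 0.03, against 2 unenriched X11 juveniles with a mean of -2.03. The within-slide differences thus ran from 2.06 to 3.00, and the difference in X35 was 2.49 within slide 7, against 1.58 over its whole family.

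Family was not itself used to choose the probe and could be tested. A probe picked for its difference over pooled families tends to vary little between them. Tests of family that find no difference are therefore not independent of that choice. Each family had a single tank per environment, so in these and the following tests family and tank cannot be told apart. The unenriched juveniles of different families shared no slide, so slide cannot be told apart there either. The 6 group means, from high to low, were enriched X11, enriched X22 and enriched X35, followed by unenriched X35, unenriched X22 and unenriched X11. Among the 6 pairs of families within an environment, X11 against X35 in the unenriched tanks differed most, with means of -1.82 and -1.04 and a difference of -0.78 (exact two-sided permutation test, n = 5 each, p = 0.0317, adjusted p = 0.190 over the 6 pairs). X22 against X35 in the unenriched tanks differed by -0.59 (exact p = 0.143, adjusted p = 0.429), and X11 against X22 by -0.19 (exact p = 0.532, adjusted p = 0.976). The 3 pairs in the enriched tanks differed by 0.01 to 0.06, with adjusted p = 0.976 in each exact test. The smallest p that 5 against 5 juveniles can give is 0.00794, so no pair passed the adjustment although the design could have reached it. The unenriched values in these pairs were measured signals of which 0 of 15 were above the Cy5 limit.

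A variation of the environment difference between families was not detected, in values of which 0 of 15 unenriched signals were above the Cy5 limit. The family by environment interaction had an adjusted p = 0.526 (moderated F-test in limma, all 6 groups), and 13 of 21133 probes passed it (0.0615%). The environment difference in X11 minus that in X22 was 0.20 (95% interval -0.77 to 1.17). In X11 it exceeded that in X35 by 0.84 (-0.12 to 1.81), and in X22 it exceeded that in X35 by 0.64 (-0.33 to 1.61). These intervals leave room for a family difference of more than 1 on the log2 scale. The family effect itself, across both environments, had an adjusted p = 0.453 (moderated F-test), whereas 5290 of 21136 probes passed that test (25%). Averaged over both environments, X11 minus X22 was -0.09 (95% interval -0.58 to 0.39), X11 minus X35 was -0.36 (-0.84 to 0.13) and X22 minus X35 was -0.27 (-0.75 to 0.22).

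The place of C204R103 among all probes is given as a description of measured ratios, with 0 of 15 unenriched signals above the Cy5 limit. The size of its difference between environments ranked 4 of 21136 in the combined families, and 17, 10 and 78 in X11, X22 and X35. A single probe lay further on the enriched side over all families. For comparison, the median probe differed in size by 0.14 in the combined families, by 0.28 in X11, by 0.19 in X22 and by 0.16 in X35. Within the 6 groups, C204R103 varied with an SD of 0.56, above that of 85.4% of the retained probes, and the median probe had an SD of 0.34. Its mean intensity was above that of only 13.2% of the retained probes, so it combined a large difference with a dim and variable spot.

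**Figure D3:**
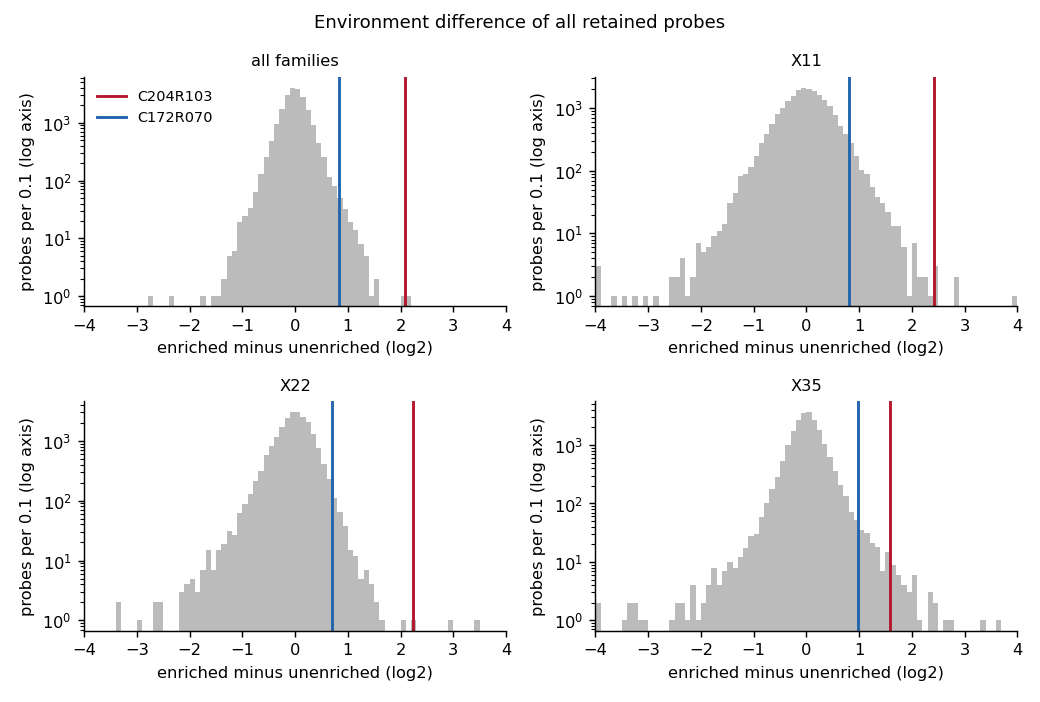
Number of retained probes (log axis) by the difference enriched minus unenriched (log2, bins of 0.1) over all families and in each family; values beyond ±4 stand in the outermost bins. The lines mark C204R103, at 2.08, 2.43, 2.23 and 1.58, and C172R070, at 0.83, 0.81, 0.69 and 0.99.

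A second probe, C172R070, carried the same name and was far brighter, with a Cy5 signal above the limit on all 30 arrays. Its name was at hand only because the study's tables list it as differing in these same samples. Its difference, its calls and its likeness to C204R103 over the 30 arrays are therefore not independent support. In X11, its log2 ratios in enriched juveniles were 0.22, 0.82, 0.29, -0.30 and 0.32, against -0.59, -0.61, -0.47, -0.21 and -0.85 in unenriched juveniles. In X22, they were 0.83, 0.22, 1.32, 0.01 and -0.03 in enriched juveniles, against 0.19, -0.75, 0.64, -0.76 and -0.44 in unenriched juveniles. In X35, they were 1.22, 0.63, 0.57, 0.94 and 0.17 in enriched juveniles, against -0.33, -0.08, -0.49, -0.63 and 0.12 in unenriched juveniles. The environments did not overlap in X35, were parted in X11 but for the lowest enriched and the highest unenriched juvenile, and overlapped in X22.

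C172R070 averaged 0.48 in enriched and -0.35 in unenriched juveniles over all families, a difference of 0.83 ± 0.16 (SE, n = 15 each). It rose in enriched juveniles in the fit over all probes (limma, adjusted p = 0.0139), where 0.222% of probes were called higher in enriched juveniles and 0.393% lower. Its difference was 0.81 in X11 (adjusted p = 0.0246), 0.69 in X22 (adjusted p = 0.499) and 0.99 in X35 (adjusted p = 0.662). The call over all families was lost with slide as a fixed block (difference 0.86, adjusted p = 0.0810) and without X11 (adjusted p = 0.324) or X35 (adjusted p = 0.0523). The X11 call was lost without enriched juvenile 3 or 5 or unenriched juvenile 1 or 2, with adjusted p of 0.0534 to 0.0551, and with the replicate block (0.0642). With slide as a fixed block, the X11 environments meet only on slide 4, with 1 enriched juvenile, so no call is read from that fit. The difference on slide 4 was 0.73. Its interaction with family had an adjusted p = 0.882.

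Over the 30 arrays the pair of probes had a correlation of 0.74, and 0.37 for the deviations from the 6 group means. Within the enriched juveniles, Pearson's r was 0.55 (permutation p = 0.0376, adjusted over both environments p = 0.0752) and Spearman's rho was 0.50 (permutation p = 0.0633, adjusted p = 0.127, n = 15). Without the 2 juveniles farthest from the median of C204R103, r was 0.07. Leaving out extremes of a variable narrows its range and tends to lower r, so whether the relation rests on those juveniles is not settled. Taken within families, r was 0.62 in enriched and 0.04 in unenriched juveniles. Within the unenriched juveniles, r was 0.15 (permutation p = 0.591) and rho was 0.17 (permutation p = 0.542, n = 15), and r was -0.07 without the farthest 2. Of these unenriched C204R103 signals, 0 of 15 were above the Cy5 limit. Whether the pair of probes reads 1 transcript or related copies was not tested.

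**Figure D4:**
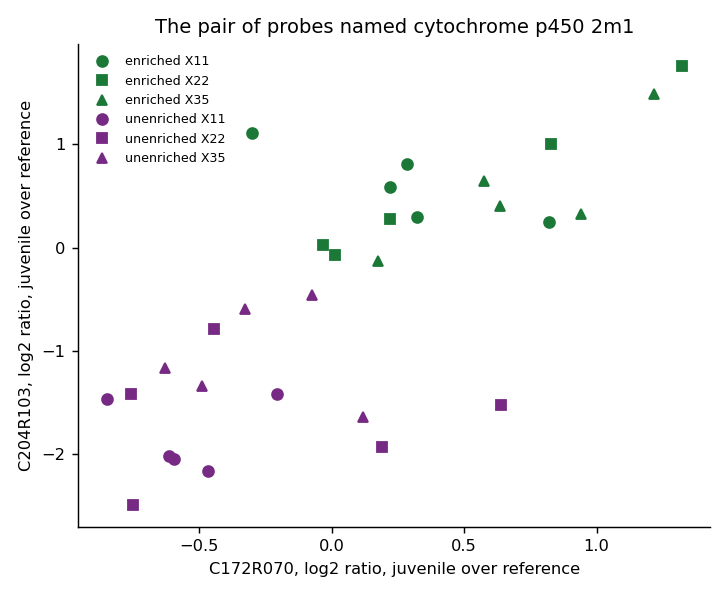
Log2 ratio of C204R103 (vertical) against C172R070 (horizontal) in each of 30 juveniles, by environment (colour) and family (shape). C204R103 parts the environments completely, while C172R070 overlaps between them, from -0.30 in the lowest enriched to 0.64 in the highest unenriched juvenile.

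Names were at hand only for the 3745 retained probes that the study's own tables list as differing, so the lists below were drawn from these same samples and their counts are not independent evidence of a response. Of these named probes, 71.7% were called in X11, against 6.03% of all probes called higher and 6.83% called lower in enriched X11 juveniles. Besides C204R103, 33 named probes belonged to the P450 family, its electron partners, haem synthesis and breakdown, conjugation and epoxide handling, or regulators. The regulator probes were named as nuclear receptors and aryl hydrocarbon receptor nuclear translocator 2. In X11, 26 of the 33 were called, 18 higher and 8 lower in enriched juveniles, a share of 78.8%, which is near that of all named probes. Over all families 1 of the 33 was called, C172R070, and 16 had an unadjusted p under 0.05 (limma). Of all 21136 probes, 3381 had such a p, and the 33 were named because they were listed as differing. In X22 and X35 the fits called 0 of the 33 (limma), with 3 and 1 at an unadjusted p under 0.05. Among all probes, 2133 of 21136 in X22 and 1073 of 21133 in X35 had such a p. In X22, 0.00473% of all probes were called higher and 0% lower in enriched juveniles, and in X35 0% either way. With slide taken as a fixed block, the X11 environments meet only on slide 4, with 1 enriched juvenile, so no X11 count is read from that fit. Leaving out single juveniles lowered the X11 count, to 17, 9, 12 and 9 without enriched juvenile 2, 3, 4 or 5, and to 9, 8 and 14 without unenriched juvenile 1, 2 or 3.

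Among the other P450 probes, the directions were mixed. The cytochrome p450 2u1-like probe C163R062, whose human relative also hydroxylates fatty acids, fell in enriched X11 juveniles by 0.79 ± 0.19 on the log2 scale (SE, limma adjusted p = 0.0237), and its difference was -0.37 in X22 and 0.23 in X35. A pair of probes was named lanosterol 14-alpha demethylase-like, the P450 of sterol synthesis. C091R023 rose in enriched X11 juveniles by 0.57 ± 0.16 (adjusted p = 0.0367), with -0.32 in X22 and 0.38 in X35. C093R130 rose in enriched X11 juveniles by 1.18 ± 0.32 (adjusted p = 0.0369), but was measured in only 9 of 15 enriched juveniles and was above the Cy5 limit on 5 arrays. Over all families none of these 3 probes was called, with adjusted p of 0.337 to 0.596. With slide as a fixed block, the X11 environments meet only on slide 4, with 1 enriched juvenile, so no call is read from that fit. The X11 difference there was 0.53 for C091R023 and 0.92 for C093R130. The C163R062 call was lost with normexp (adjusted p = 0.0577), with the replicate block (0.0522) and without unenriched juvenile 2 (0.0527) or enriched juvenile 3 (0.0571). The C091R023 call was lost with the replicate block (0.0695) and with signal means (0.0554). Leaving out 1 juvenile ended the C091R023 call in 8 of 10 fits (all but enriched or unenriched juvenile 1, adjusted p of 0.0526 to 0.0840) and the C093R130 call in 8 of 10 (all but unenriched juvenile 4 or 5, adjusted p of 0.0516 to 0.0893).

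The electron partners moved in opposite directions in X11. NADPH-cytochrome P450 reductase (C138R118) averaged -0.38 in enriched and 0.40 in unenriched X11 juveniles and fell by 0.79 ± 0.17 (SE, limma adjusted p = 0.0161). Cytochrome b5 (C015R021) averaged 0.13 in enriched and -0.81 in unenriched X11 juveniles and rose by 0.94 ± 0.20 (adjusted p = 0.0161). Over all families neither was called: the difference was -0.27 (adjusted p = 0.246) for the reductase and 0.52 (adjusted p = 0.191) for cytochrome b5. The interaction with family was not called for either, with adjusted p of 0.131 and 0.467. The X11 call of cytochrome b5 was lost with normexp (adjusted p = 0.0604) and with the replicate block (0.0532). With slide as a fixed block, the X11 environments meet only on slide 4, with 1 enriched juvenile, so neither call is read from that fit.

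**Figure D5:**
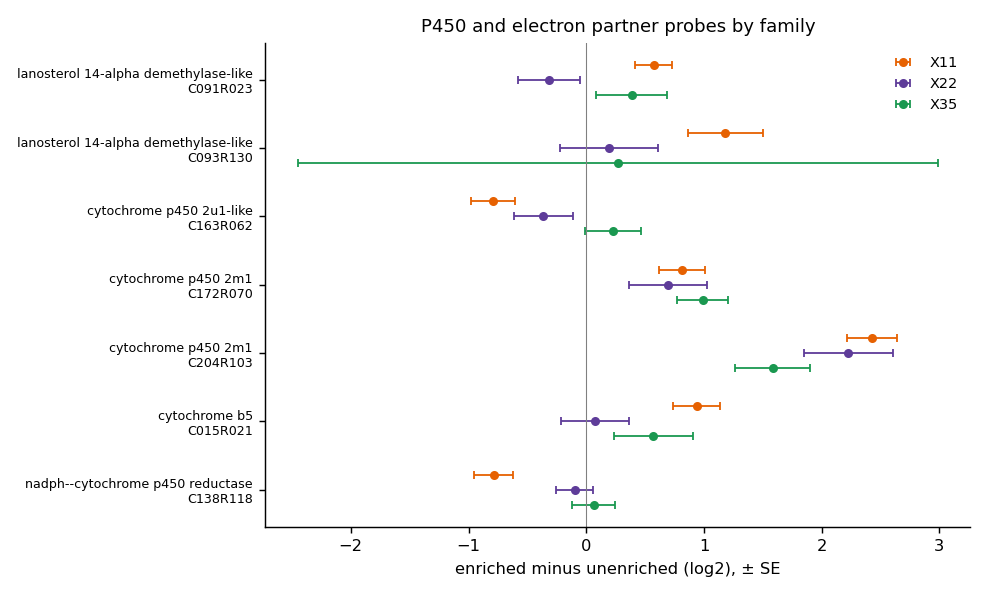
Difference enriched minus unenriched (log2, ± SE) of the 5 P450 probes and the 2 electron partner probes in each family. C204R103 lies at 2.43, 2.23 and 1.58 in X11, X22 and X35, and C172R070 is the other probe above 0.6 in all 3 families.

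The remaining lists held probes of haem synthesis and breakdown, of steps after a P450, and of regulators. Of 5 haem probes, 2 were called higher and 2 lower in enriched X11 juveniles. A heme oxygenase probe (C071R051, haem breakdown) rose by 1.21 (limma adjusted p = 0.0430), and 5-aminolevulinate mitochondrial (C066R041, named after the first step of haem synthesis) fell by 1.13 (adjusted p = 0.0152). The other heme oxygenase probes differed in X11 by 1.23 (C185R057, adjusted p = 0.0343) and -0.89 (C133R031, adjusted p = 0.0716). C133R031 was above the Cy5 limit on 1 array. Of 15 conjugation and epoxide probes, mostly glutathione transferases, epoxide hydrolases and sulfotransferases, 9 were called higher and 2 lower in enriched X11 juveniles. The epoxide hydrolase 1-like probes held both ends of that list over all families, at 0.78 (C104R163, adjusted p = 0.210) and -0.45 (C052R006, adjusted p = 0.344). C104R163 was above the Cy5 limit on only 4 arrays and C052R006 on 18. Of 7 regulator probes, 3 were called higher and 2 lower in enriched X11 juveniles. A probe of peroxisome proliferator-activated receptor beta (C243R121), a fatty acid receptor, had the largest difference of that list over all families, 0.54 (adjusted p = 0.0671). Retinoic acid receptor rxr-gamma-b (C161R062) had the lowest, -0.34 (adjusted p = 0.410). The other probe named peroxisome proliferator-activated receptor beta (C172R168) had -0.12 (adjusted p = 0.680). In X11 the pair was called in opposite directions, 0.82 for C243R121 (limma adjusted p = 0.0379) and -0.73 for C172R168 (adjusted p = 0.0324). As 71.7% of all named probes were called in X11, nothing particular to these lists is read from their counts. The median difference over all families was -0.05 for haem, 0.17 for conjugation and 0.18 for the regulators, against -0.01 over all probes tested.

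Markers of other tissues in the head were called between the environments over all families in every list but blood. The adjusted p of these calls ran from 0.0263 to 0.0476 (limma), and how each call depends on the processing is not given here. Of all probes, 0.222% were called higher and 0.393% lower, and 3.44% of the named probes were called. The share called was above that of the named probes in each list but blood, on 1 to 3 probes a list. Of 19 epithelium probes (keratins, claudins, envoplakins and transglutaminases), 18 had a positive difference over all families and 3 were called higher in enriched juveniles. The mean log2 ratio of this list ran from -0.41 to 0.72 in enriched and from -0.97 to -0.06 in unenriched juveniles. Of 13 heart probes, 12 had a negative difference and 2 were called lower in enriched juveniles, and the list mean ran from -1.17 to -0.37 in enriched and from -1.07 to 0.69 in unenriched juveniles. Of 4 liver and plasma probes, all had a negative difference and 1, transferrin precursor (C233R116), was called lower, with a list mean from -1.79 to -0.37 in enriched and from -1.25 to 2.35 in unenriched juveniles. By family, the difference of C233R116 was -0.97 in X22, -0.44 in X11 and -0.04 in X35. The list means of 15 brain and nerve probes ran from -0.01 to 0.29 in enriched and from -0.40 to 0.07 in unenriched juveniles, with 1 probe called higher. Skeletal muscle and eye lens had 1 of 5 and 1 of 4 probes called lower in enriched juveniles, and the 3 blood probes had adjusted p of 0.166 to 0.728. No marker probe was under its Cy5 limit on every array. Both apolipoprotein a-i probes (C176R119 and C133R140) of the liver and plasma list were above it on only 2 arrays, and the other 2 probes of that list on all 30. C076R113 of the epithelium list was above it on 4 arrays. C067R138 of the epithelium list and C121R043 of the brain and nerve list were above it on 6. Of the called probes, C238R102 of the eye lens list was above it on 7 arrays and measured in 12 of 15 enriched juveniles. The called C086R103 of the heart list was above it on 10 and the called C233R135 of the skeletal muscle list on 13. The other called marker probes were above it on all 30. The summed Cy5 signals of the epithelium list ran from 97393 to 317211 in enriched and from 95019 to 298294 in unenriched juveniles, those of the heart list from 39934 to 125297 in enriched and from 67157 to 345660 in unenriched juveniles, and those of the liver and plasma list from 15593 to 71442 in enriched and from 34972 to 181520 in unenriched juveniles. Over the 30 arrays, which share the pooled reference, C204R103 had a correlation of 0.76 with the epithelium mean, 0.72 with the brain and nerve mean, -0.62 with the heart mean, -0.57 with the skeletal muscle mean, -0.53 with the liver and plasma mean, -0.26 with the eye lens mean and -0.17 with the blood mean. These correlations carry the difference between environments, on which C204R103 and the named probes were chosen. The part of these tissues in the difference of C204R103 was not tested.

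The probes most like C204R103 over the 30 arrays, among 20071 other probes measured on at least 28, were complement receptor type 1-like (C211R110, r = 0.82), the hypothetical protein C237R040 (r = 0.80), ras-related protein rab-25 (C120R154, a small GTPase of epithelial membrane traffic, r = 0.79), metalloproteinase inhibitor 2 precursor (C211R161, which restrains matrix-degrading enzymes, r = 0.78) and calpain-2 catalytic subunit-like (C023R047, a calcium-dependent protease, r = 0.78). C172R070 ranked 8. At the other end were kinesin-like protein kif20b-like (C239R104, r = -0.78) and dual specificity protein kinase ttk-like (C020R126, r = -0.78), both known from cell division, with C128R044 (an uncharacterized protein, r = -0.72), tetratricopeptide repeat protein 4-like (C187R119, r = -0.71) and the unnamed C103R046 (r = -0.70). These correlations carry the difference between environments. For the deviations from the 6 group means, the same 5 highest probes had correlations of 0.31, 0.21, 0.54, 0.42 and 0.40. The highest correlations of deviations, 0.71 to 0.75, belonged to 5 probes with no gene name at hand (C193R137, C127R102, C255R116, C082R134 and C233R148), whose own differences between environments were -0.04 to 0.29.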

How the data were processed

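Intensities are the authors' deposited scanner values (signal and local background medians of each spot, extracted with Imagene, not normalized). A second deposited file holds the normalized log2 ratios of the authors for 21117 probes, in which gaps were imputed; it served as an alternative. The ratios reported here were recomputed from those intensities after the study's methods: background subtraction, log2 of Cy5 over Cy3, loess (span 0.4, 5 iterations), and exclusion of flagged spots (flags 1 and 2), of spots dimmer in Cy3 than the mean background + 2 SD, and of probes with over 7 gaps among 30 arrays. This kept 21136 probes, 21098 of them in the authors' table, and the correlation with that table was at least 0.997 on every array. Fits used limma 3.58.1 in R 4.3.3 (lmFit, eBayes, two-sided, Benjamini-Hochberg over all probes, FDR 5%), and exact permutation tests used SciPy 1.17.1. SAM, the test of the study, was not run. The p-values of the fits within a family, of the family pairs and of the interaction measure the spread between juveniles of single tanks. The environment fit over all families had no family term, so its spread also holds differences between families and their tanks. The fits were tested on simulated data.

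The probe and the lists were chosen with earlier results of these data known. Named were both cytochrome p450 2m1 probes, all P450 and electron partner probes, the extremes of the other lists and the probes most and least correlated with C204R103. Gene names came from the study's supplementary tables, and matches to unrelated names were dropped from the lists once the names were seen. Their columns of fold change were not used. Same-numbered juveniles were not treated as pairs: the correlation of their deviations was over 0.1 in 0 of 5 pairs in X11, 1 of 5 in X22 and 4 of 5 in X35 (0.04 to 0.52). Alternatives changed the background correction, normalization, filter, weights, blocks and juveniles included. The number of arrays limits the precision.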

Additional observations from a re-analysis of the deposited data

Results flagged for a closer look

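Among the 7 P450 and electron partner probes, 38 groups of 5 juveniles were complete, and 4 held a juvenile far from the other 4. Chance gives about 1 in 20 such groups. Lanosterol 14-alpha demethylase-like C091R023 had a log2 ratio of 1.08 in enriched X11 juvenile 4, against 0.43 to 0.53 in the others. Cytochrome b5 (C015R021) had 1.34 in enriched X35 juvenile 2, against -0.68 to -0.13. In unenriched X22 juvenile 3, on the brightest array (median Cy5 signal 831.5), cytochrome b5 was at -0.74, against 0.36 to 0.66, and NADPH-cytochrome P450 reductase (C138R118) at 0.51, against -0.18 to -0.02. C204R103 had no such juvenile in any group.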

How the results depend on the processing

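With each unenriched array set at its own Cy5 limit, the log2 difference of C204R103 nearly vanished. It was 0.14 for X11, 0.12 for X22, -0.04 for X35 and 0.08 for the combined families. That alternative is left out of the ranges below, which rest on measured values. Among measured values the environment difference of C204R103 stayed positive under every alternative. For X35 it ran from 1.28 to 2.49, for X22 from 1.67 to 2.91 and for X11 from 1.62 to 2.59. With the families combined it ran from 1.56 to 2.56. The difference moved by more than the spread between juveniles in X11 with normexp (1.62) and with signal means in place of medians (1.83). It also moved in X35 with slide as a fixed block (2.49), the top of the X35 range. The X35 environments meet only on slide 7, with 1 unenriched juvenile, the lowest of its group at -1.64. No shift is therefore read from that fit. Leaving out 1 juvenile at a time gave 2.00 to 2.15 over all families, 2.30 to 2.53 in X11, 1.94 to 2.44 in X22 and 1.35 to 1.75 in X35. Without enriched X35 juveniles 3 to 5, an alternative chosen after seeing the data, it was 2.16 over all families and 1.98 in X35. That set enriched X35 juveniles 1 and 2 against all 5 unenriched ones, so nothing is read from the rise. Unenriched X35 juveniles 1 and 2 were also the highest of their group, at -0.59 and -0.46. With the replicate block the difference was 2.08, 2.43, 2.23 and 1.58, as the balanced design fixes in advance for a probe without gaps. The interaction (adjusted p of 0.342 to 0.929), the family effect (0.184 to 0.855) and the smallest adjusted p of the family pairs (0.0952 to 0.921) passed under none of the alternatives run.

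The pathway counts moved. Over all families the count was 1, with 0 under slide as a fixed block and without X11, 2 with the Cy5 signal alone and without X35, 3 with family as a fixed block, 7 without enriched X35 juveniles 3 to 5, and 1 to 2 without 1 juvenile (2 without enriched X35 juvenile 3 or 4 or unenriched X35 juvenile 1). In X11 it was 26, with 13 under normexp, 12 with the replicate block and 8 to 28 without 1 juvenile. X11 counts with slide as a fixed block are left out, as that fit compares the X11 environments on slide 4 alone, with 1 enriched juvenile. Over all probes, 130 calls over all families (47 higher, 83 lower in enriched) became 22 with normexp (11 and 11), 142 with median centring (26 and 116), 84 with no filter on dim spots, 64 and 20 with slide as a random and a fixed block, 370 with family as a block, 277 with the Cy5 signal alone (29 and 248), 1681 without enriched X35 juveniles 3 to 5, and 3, 79 and 440 without X11, X22 or X35. The 2717 calls in X11 (1274 and 1443) became 3942 with median centring (1368 and 2574), 3492 with the Cy5 signal alone (2398 and 1094) and 1328 with the replicate block. The signal over background limits these values: 6 of 15 enriched and 15 of 15 unenriched signals of C204R103 were under the Cy5 limit.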

Other observations

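Set against the median Cy5 signal of all spots on its own array, with no reference channel and no loess, the C204R103 spot was 1.70 to 10.4 times the median in enriched juveniles and 0.44 to 1.88 times in unenriched juveniles. The highest ratio, 10.4, belonged to enriched X22 juvenile 3, which also had the highest log2 ratio. For C172R070 the same quantity was 9.13 to 92.6 in enriched and 9.50 to 33.7 in unenriched juveniles.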
